A study of Mus musculus with 12 samples.

Results

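Collagens are the most abundant proteins of the extracellular matrix, and their genes were examined in mouse liver. The members were taken by name, as every gene called Col, a type number, a and a chain number in either of the study's tables of read counts. There were 44 such genes among the 23391 genes listed, and 41 of them stood in both tables. They were split into 11 fibrillar genes (types I, II, III, V, XI, XXIV and XXVII), 6 basement membrane genes (type IV) and 27 genes of other types.

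The livers came from C57BL/6N male mice, stated as 4 to 6 months old, whose Elavl1 alleles were all floxed. Elavl1 encodes HuR, a protein that binds RNA and sets the stability and translation of many transcripts. Hepatocyte deletion was attempted with the virus AAV8-Tbg-Cre, in which the hepatocyte promoter Tbg drives the recombinase, and these livers are labelled HuRHep-/-. The controls, labelled WT, carried the same floxed alleles and were given the virus without the recombinase, AAV8-Tbg-null. The methods of the paper describe a cross with albumin-Cre mice and younger animals, so the labels and the paper differ on how the mice were made. Within each genotype label, 3 livers came from mice on normal chow and 3 from mice kept for 16 weeks on the HFCF diet (40 kcal% fat, 2% cholesterol and 20 kcal% fructose). The chow and HFCF libraries were deposited as separate tables, so the diet and the table cannot be told apart.

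A collagen molecule is a triple helix of 3 chains. The fibrillar types assemble into cables, with types I and III forming most of the bulk and type V starting and limiting fibrils. Type IV forms the sheet of basement membranes, type VI forms beaded filaments, and the fibril-associated collagens (FACITs, such as XII, XIV and XVI) decorate the surface of fibrils. Types XV and XVIII, the multiplexins, are proteoglycans of basement membrane zones, and the end of the type XVIII chain is released as endostatin. In liver, hepatocytes make type XVIII, while stellate cells and portal fibroblasts make most fibrillar collagen and increase it when scar tissue forms.

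The libraries held 30071731 to 35949203 counts each. Elavl1, the targeted gene, went against its label. Its counts in chow were 938, 876 and 948 in WT and 1475, 1265 and 1261 in the livers labelled HuRHep-/-, and in HFCF they were 904, 791 and 849 against 1299, 1242 and 1271. The differences were 0.41 ± 0.0675 (SE; adjusted p = 0.0219, limma) and 0.38 ± 0.0719 (adjusted p = 0.0327, limma) on the log2 scale, higher in the livers labelled HuRHep-/- in both diets. Counts over a whole gene do not show whether the floxed exon was lost, and every direction below is one between labels. Several libraries were often at one end of their group among the 30 collagens tested over all 12 livers. Chow HuRHep-/- replicate 3 was the lowest of its 3 livers in 25 of 30, chow WT replicate 1 in 21 and HFCF WT replicate 2 in 18. At the other end, chow WT replicate 2 was the highest of its 3 in 24, HFCF WT replicate 3 in 19 and HFCF HuRHep-/- replicate 3 in 18. Over all genes tested in HFCF, replicate 2 also stood apart from the other WT livers on the first principal component, which held 55.2% of the variance. It lay at -62.5, against -27.5 and -9.41 for WT replicates 1 and 3 and 26.6 to 36.7 for the livers labelled HuRHep-/-.

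The collagen genes lie on many chromosomes, some of them in pairs (GRCm38). Col4a1 (chr8:11198423-11312826) and Col4a2 (chr8:11312805-11449287) run in opposite directions from a shared start and overlap by 22 bases. Col4a3 and Col4a4 on chromosome 1 start 71 bases apart, and Col4a5 and Col4a6 on the X chromosome 1308 bases apart, also in opposite directions. Col3a1 (chr1:45311538-45349706) and Col5a2 are neighbours, with 24614 bases between them, as are Col6a1 and Col6a2 on chromosome 10. Col15a1 lies at chr4:47208161-47313167 and Col18a1 at chr10:77052178-77166548. Some members share exon bases with another gene on their strand, which were 141 bases for Col3a1 (with Gm47302), 79 for Col20a1 and 36 for Col7a1.

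For 4 members on which the comparisons below turn, the 250 bases before the annotated start of transcription are shown, to set a start without common promoter letters beside starts that hold them. The sequences are from RefSeq (GRCm38.p6), run 5′ to 3′ on the strand of the gene and hold no annotated exon. Capitals mark 3 motifs, each searched on both strands. They are TATAAA (the TATA box), the letters GGGCGG of the GC box and CCAAT. Col15a1 (chr4:47207762-47208011, plus strand) and Col8a1 (chr16:57754738-57754987, minus strand) were called between the genotype labels. Both were also called between the diets, Col15a1 in WT livers and Col8a1 under the HuRHep-/- label. Col3a1 (chr1:45311288-45311537, plus strand) and Col5a1 (chr2:27886175-27886424, plus strand) were called between the diets alone.
Col15a1: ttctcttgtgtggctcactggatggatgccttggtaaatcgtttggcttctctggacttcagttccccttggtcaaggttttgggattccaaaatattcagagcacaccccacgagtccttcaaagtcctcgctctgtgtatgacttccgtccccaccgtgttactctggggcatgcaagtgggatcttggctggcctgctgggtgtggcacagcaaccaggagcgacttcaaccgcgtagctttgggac
Col8a1: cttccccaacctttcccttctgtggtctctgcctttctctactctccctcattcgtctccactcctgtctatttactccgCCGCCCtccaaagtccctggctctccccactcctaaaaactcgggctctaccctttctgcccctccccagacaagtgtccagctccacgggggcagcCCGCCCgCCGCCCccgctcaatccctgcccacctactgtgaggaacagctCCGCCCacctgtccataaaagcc
Col3a1: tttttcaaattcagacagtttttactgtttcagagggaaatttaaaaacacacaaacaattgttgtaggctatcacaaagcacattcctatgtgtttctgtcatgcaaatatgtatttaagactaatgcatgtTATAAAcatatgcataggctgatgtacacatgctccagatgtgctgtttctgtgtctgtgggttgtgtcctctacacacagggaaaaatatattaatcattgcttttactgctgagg
Col5a1: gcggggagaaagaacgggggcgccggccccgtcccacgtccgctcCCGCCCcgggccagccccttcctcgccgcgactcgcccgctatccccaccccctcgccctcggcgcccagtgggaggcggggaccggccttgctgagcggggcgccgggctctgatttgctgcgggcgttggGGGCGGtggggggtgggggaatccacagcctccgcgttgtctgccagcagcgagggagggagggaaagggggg

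The Col15a1 stretch held none of the 3 motifs, the Col3a1 stretch held TATAAA alone, and those of Col5a1 and Col8a1 held GGGCGG on at least 1 strand. For Col15a1 the RefSeq start is at 47208012, while the position given above begins at 47208161, and the bases between were not searched. Starts were found for 35 members (38 starts), and not for Col1a1, Col2a1, Col4a3, Col5a2, Col9a3, Col12a1, Col14a1, Col22a1 and Col26a1. GGGCGG stood before 22 of the 38 collagen starts (57.9%) and before 32.7% of all 32851 starts. CCAAT stood before 13 of 38 (34.2%, against 33.8% of all starts) and TATAAA before 5 of 38 (13.2%, against 12.4%). A match is a string of letters and does not show that a factor binds there.

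Col18a1 made up most of the collagen counts in every liver. Levels are given as CPM, counts scaled to a common library size, on 1 scale set over the 12 libraries, and levels of different genes are compared as CPM per kilobase of the longest coding transcript. In chow WT livers Col18a1 stood at 108 ± 3.45 CPM per kilobase (SD, n = 3), followed by Col5a3 at 4.62 ± 0.55, Col14a1 at 3.79 ± 0.593 and Col3a1 at 3.49 ± 1.10. The last 3 of these levels lay within their spread of each other. Col1a1, which encodes the main chain of type I collagen, came 10th at 0.961 ± 0.524 CPM per kilobase.

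In HFCF livers labelled HuRHep-/- the order after Col18a1 (130 ± 9.49 CPM per kilobase) was another one. Col3a1 was 2nd at 17.1 ± 3.01 CPM per kilobase, followed by Col14a1 at 9.75 ± 0.233, Col1a2 at 8.69 ± 1.90 and Col1a1 at 8.06 ± 1.95. Col3a1 stood above the others by more than the spread, while Col14a1, Col1a2 and Col1a1 did not differ beyond theirs. Col18a1 made up 75.5 to 81.7% of collagen counts in chow WT livers, 81.4 to 85.9% in chow livers labelled HuRHep-/-, 60.0 to 77.6% in HFCF WT livers and 58.3 to 62.7% in HFCF livers labelled HuRHep-/-. All collagens together took 0.0663 to 0.149% of the counts of a library.

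**Figure D1:**
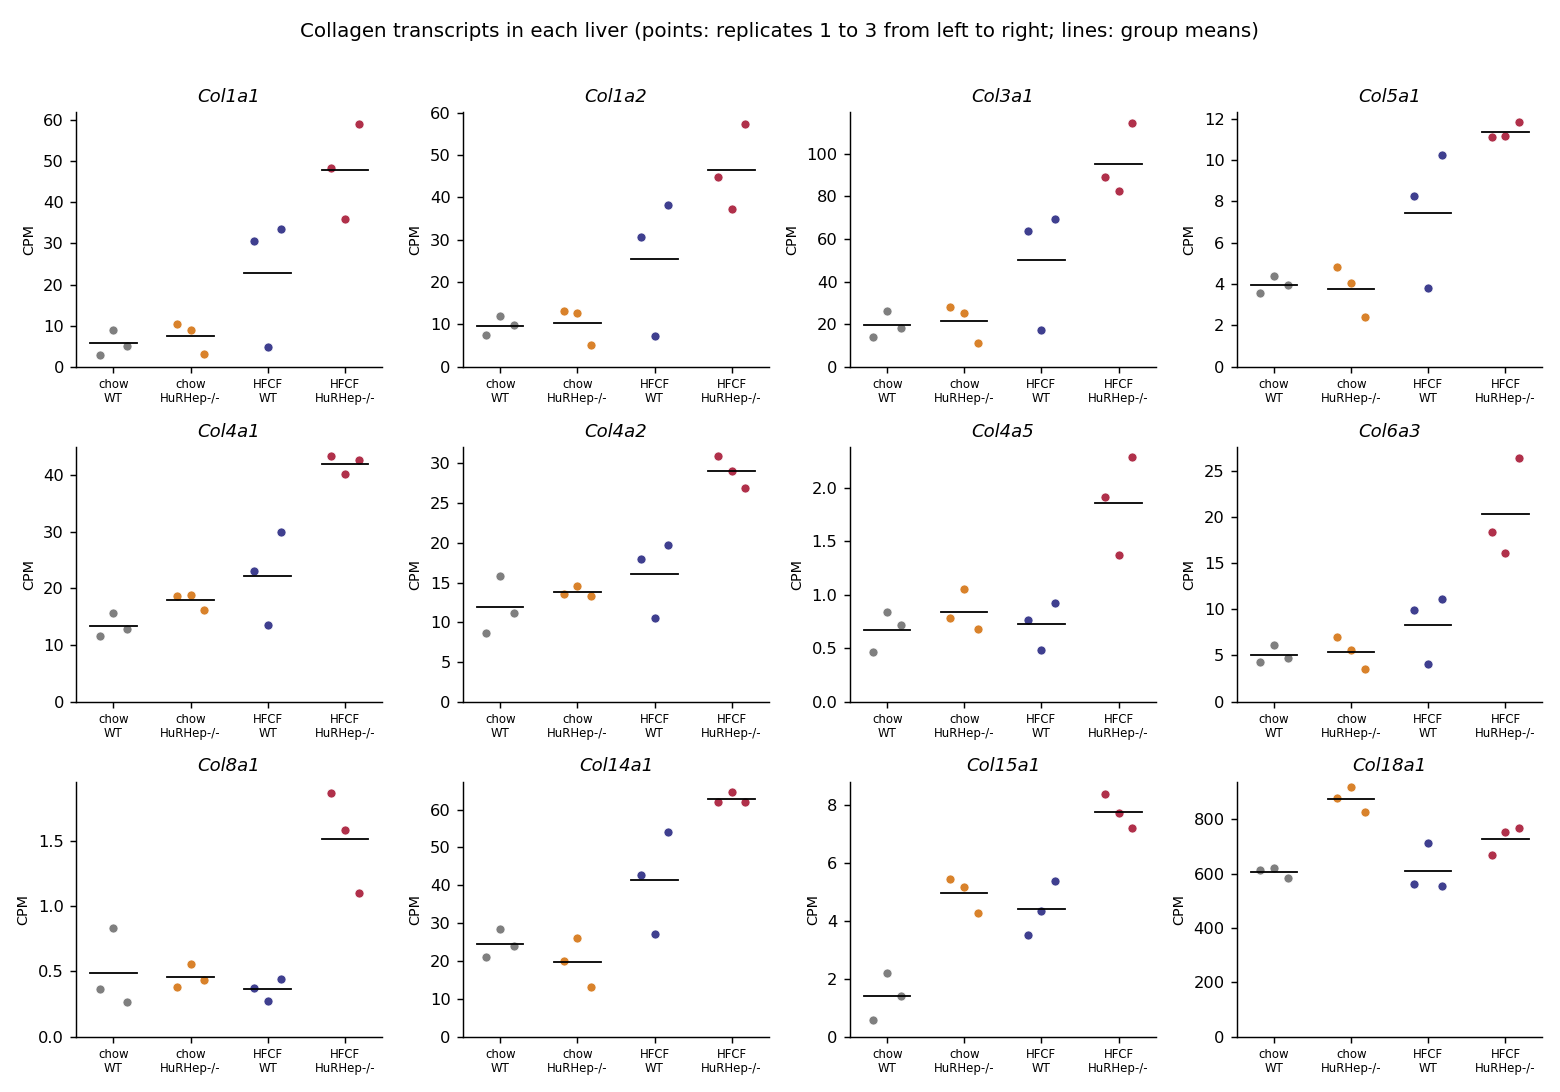
Levels of 12 collagen genes in each of the 12 livers, in CPM, with points for replicates 1 to 3 from left to right in each group and a line at the group mean. Col1a1 and Col3a1 show HFCF WT replicate 2 near the chow livers, and Col18a1 is highest in the chow livers labelled HuRHep-/-.

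Only part of the family could be tested. A gene entered a test if at least 3 libraries held the CPM that 10 counts make in a library of median size, which 26 members did in chow, 29 in HFCF and 30 over all 12 livers. The other 14 members, among them Col2a1, Col9a1, Col10a1, Col11a1 and Col17a1, had at most 24 counts in any library. That highest count was in Col4a6, which had 14, 9 and 24 counts in HFCF livers labelled HuRHep-/- and 4, 2 and 5 in HFCF WT livers, too few for the filter. A member could pass through 1 group in which it was high, so the counts and medians over members tested below describe those members and not the whole family. A gene is described as called, or as having risen or fallen, where limma gave an adjusted p of at most 0.05 and at least a 1.5-fold change, with at least 10 counts summed over each group. Changes are log2 fold changes of CPM with a pseudocount of 0.5 counts added to each value, which understates the change of genes with few reads, and are given with their SE.

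On chow, the question was whether the genotype labels differed in the unchallenged liver. Of the 26 collagens tested, 1 was called, Col15a1, and it was higher in the livers labelled HuRHep-/-. Over all 13526 genes tested, 1.27% were called higher and 0.969% lower. The collagens had 13 estimates above and 13 below 0, with a median of 0.03 on the log2 scale beside 0.00468 for all genes. In bulk liver, fewer cells of a type and less RNA per cell cannot be told apart.

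Col15a1, which encodes the chain of type XV, a linker between basement membrane and underlying fibrils, had 0.559, 2.21 and 1.41 CPM in chow WT livers and 5.45, 5.17 and 4.25 CPM in chow livers labelled HuRHep-/-. These levels rest on 17, 66 and 43 counts against 188, 167 and 138. All 3 livers labelled HuRHep-/- lay above all 3 WT livers, and WT replicate 1 was the lowest of the 6. The difference was 2.02 ± 0.44 on the log2 scale (adjusted p = 0.0472, limma), a fold of 4.07 (95% interval 2.0 to 8.26). It was called without WT replicate 1 or 2, and missed the threshold without any 1 of the other 4 libraries, with estimates of 1.48 to 2.46 over the 6 fits. With upper-quartile scaling or with a replicate block it also missed the threshold, at an estimate of 2.02 in both, so that no collagen was called.

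Col18a1, the other multiplexin, had 614, 621 and 584 CPM in chow WT livers and 878, 919 and 827 CPM in chow livers labelled HuRHep-/-. The groups did not overlap. At 0.53 ± 0.07 (adjusted p = 0.0131, limma) the difference passed the test and fell just short of 1.5-fold, at 1.45. It passed in 2 of the 6 fits that left out 1 liver, those without HuRHep-/- replicate 3 or WT replicate 2, and missed in the others, with adjusted p from 0.0174 to 0.0781 (limma) and estimates of 0.498 to 0.574 over the 6. In both multiplexins all livers labelled HuRHep-/- lay above all WT livers on chow, and in both the test result depended on which livers entered.

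Some members had groups that did not overlap and were still not called. Col6a6, a chain of type VI with a narrow tissue range, had 0.263, 0.368 and 0.261 CPM in chow WT livers and 0.696, 0.836 and 0.738 CPM in those labelled HuRHep-/- (1.32 ± 0.30, adjusted p = 0.0546, limma). Col20a1, a little-studied FACIT, had 1.12, 0.903 and 0.752 CPM against 0.464, 0.433 and 0.277 CPM (-1.22 ± 0.32, adjusted p = 0.0761, limma), and 79 of its exon bases are shared with another gene on its strand. Col4a1, a main chain of type IV, had 11.6, 15.6 and 12.8 CPM against 18.6, 18.9 and 16.1 CPM (0.43 ± 0.129, adjusted p = 0.1, limma). Across the collagens tested on chow, 4 of 26 had groups apart with the HuRHep-/- label higher, where 15.3% of all genes did.

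None of the 8 fibrillar collagens tested on chow was called by limma, and none had an unadjusted p under 0.05 or groups that stood apart. Col3a1, the chain of type III, had 14.02, 26.02 and 18.2 CPM in WT livers and 27.9, 25.3 and 10.98 CPM in those labelled HuRHep-/- (0.08 ± 0.365, adjusted p = 0.916, limma). The 3rd liver of the HuRHep-/- label was the lowest of the 6 and the other 2 were within or above the range of WT. Without that liver the Col3a1 estimate was 0.51 (adjusted p = 0.243, limma) and the median of the collagens was 0.274, with no member called, and without chow WT replicate 2 the median was 0.265, with Col15a1 called. The other members with the highest levels of their class overlapped between the labels, which were Col5a3 (-0.03 ± 0.127, adjusted p = 0.924), Col27a1 (0.24 ± 0.142, adjusted p = 0.356), Col4a2 (0.27 ± 0.2, adjusted p = 0.447), Col4a5 (0.33 ± 0.321, adjusted p = 0.573), Col6a1 (0.17 ± 0.345, adjusted p = 0.801) and Col14a1 (-0.35 ± 0.236, adjusted p = 0.409) by limma.

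In HFCF livers 3 of the 29 collagens tested were called between the genotype labels, Col8a1, Col4a5 and Col15a1, each higher in livers labelled HuRHep-/-. Over all 14295 genes tested, 2.15% were called higher and 1.47% lower. Of the 29 estimates 20 were above 0 (69.0%), with a median of 0.62 beside -0.00155 for all genes, and 15 of 29 members had groups apart with the HuRHep-/- label higher, where 17.6% of all genes did. The class medians were 0.76 for the fibrillar, 0.98 for the type IV and 0.26 for the other collagens. The median over the collagens without HFCF WT replicate 2 was 0.38, and those of the classes were 0.40, 0.66 and 0.35. In a fit of all 12 livers 5 members were called, Col8a1, Col4a5, Col4a1, Col4a2 and Col6a3, and Col15a1 was not.

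Col8a1 encodes a chain of type VIII, a short-chain collagen that forms networks in vessel walls. It had 0.369, 0.275 and 0.445 CPM in HFCF WT livers (14, 9 and 14 counts) and 1.87, 1.58 and 1.10 CPM in HFCF livers labelled HuRHep-/- (75, 61 and 41 counts). The groups stood well apart, while the chow livers of both labels held 0.261 to 0.836 CPM. The difference was 2.00 ± 0.31 on the log2 scale (adjusted p = 0.0222, limma), a fold of 3.99 (95% interval 2.42 to 6.57).

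Col4a5, a type IV chain of specialised basement membranes, had 0.765, 0.488 and 0.921 CPM in HFCF WT livers and 1.92, 1.37 and 2.29 CPM in those labelled HuRHep-/-. No WT liver reached the lowest liver of the HuRHep-/- label. The difference was 1.34 ± 0.31 (adjusted p = 0.0487, limma). Col15a1 had 3.51, 4.33 and 5.37 CPM in HFCF WT livers and 8.38, 7.70 and 7.19 CPM in those labelled HuRHep-/-. The groups were apart, as on chow, at a difference of 0.82 ± 0.165 (adjusted p = 0.0377, limma), a fold of 1.76 (95% interval 1.35 to 2.30).

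The main type IV chains came next, without a call in the fit of the 6 HFCF livers. Col4a1 had 23.01, 13.5 and 29.99 CPM in HFCF WT livers and 43.3, 40.2 and 42.6 CPM in those labelled HuRHep-/- (0.98 ± 0.26, adjusted p = 0.0645, limma). Col4a2 had 17.97, 10.6 and 19.7 CPM against 30.9, 29.1 and 26.96 CPM (0.88 ± 0.22, adjusted p = 0.0575, limma). For both chains the livers labelled HuRHep-/- were close to each other and above every WT liver. Col4a4 had 0.713, 0.519 and 0.381 CPM against 0.997, 1.04 and 1.43 CPM (1.09 ± 0.307, adjusted p = 0.0749, limma). Col4a3, its neighbour in the opposite direction, had 0.607, 0.610 and 0.731 CPM against 0.598, 0.700 and 0.673 CPM, an estimate of -0.000629 (adjusted p = 0.999, limma), so the levels of this pair were apart in one gene and overlapped in the other.

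Among the type VI chains, Col6a3 had 9.87, 4.06 and 11.1 CPM in HFCF WT livers and 18.4, 16.1 and 26.4 CPM in those labelled HuRHep-/- (1.36 ± 0.38, adjusted p = 0.0736, limma). The groups were apart here and for Col6a1 and Col6a2, none of which was called. Col14a1 was also apart, at 42.8, 27.1 and 54.1 CPM against 62.0, 64.7 and 62.1 CPM (0.65 ± 0.223, adjusted p = 0.114, limma), while Col18a1 (0.25 ± 0.118, adjusted p = 0.206), Col5a3 (0.28 ± 0.189, adjusted p = 0.358) and Col27a1 (-0.17 ± 0.2, adjusted p = 0.613) overlapped (limma). The type I and III chains had wide spreads in the WT group. Col1a1 had 30.5, 4.88 and 33.4 CPM in HFCF WT livers and 48.4, 35.9 and 59.0 CPM in those labelled HuRHep-/- (1.44 ± 0.69, adjusted p = 0.21, limma). Col3a1 had 63.8, 17.4 and 69.2 CPM against 88.9, 82.5 and 114 CPM (1.13 ± 0.494, adjusted p = 0.178, limma). Col1a2 had 30.7, 7.20 and 38.2 CPM against 44.8, 37.3 and 57.4 CPM (1.15 ± 0.579, adjusted p = 0.227, limma). In Col6a3, Col1a1, Col3a1 and Col1a2 WT replicate 2 was the lowest of the 6 livers by far. Both other WT livers lay below every liver of the HuRHep-/- label in the first 3 of these genes, and in Col1a2 the groups overlapped.

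Without HFCF WT replicate 2 the Col1a1 estimate fell from 1.44 to 0.54 (adjusted p = 0.144, limma), that of Col1a2 from 1.15 to 0.40 (adjusted p = 0.222, limma) and that of Col3a1 from 1.13 to 0.49 (adjusted p = 0.0893, limma). The calls were then again 3 in number, where 1.4% of all genes were called higher, against 2.15% with all livers. Only Col8a1 was shared with the full set (1.82, adjusted p = 0.0326, limma). Col4a1 (0.66, adjusted p = 0.0353) and Col4a2 (0.60, adjusted p = 0.0253) were called, and Col15a1 (0.81, adjusted p = 0.0626) and Col4a5 (1.08, adjusted p = 0.0707) missed the threshold in limma. Without HFCF WT replicate 3 there were 6 calls, the 3 of the full set with Col4a1, Col4a2 and Col14a1. Without HFCF WT replicate 1, or without any 1 liver labelled HuRHep-/-, limma called none of the collagens.

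**Figure D2:**
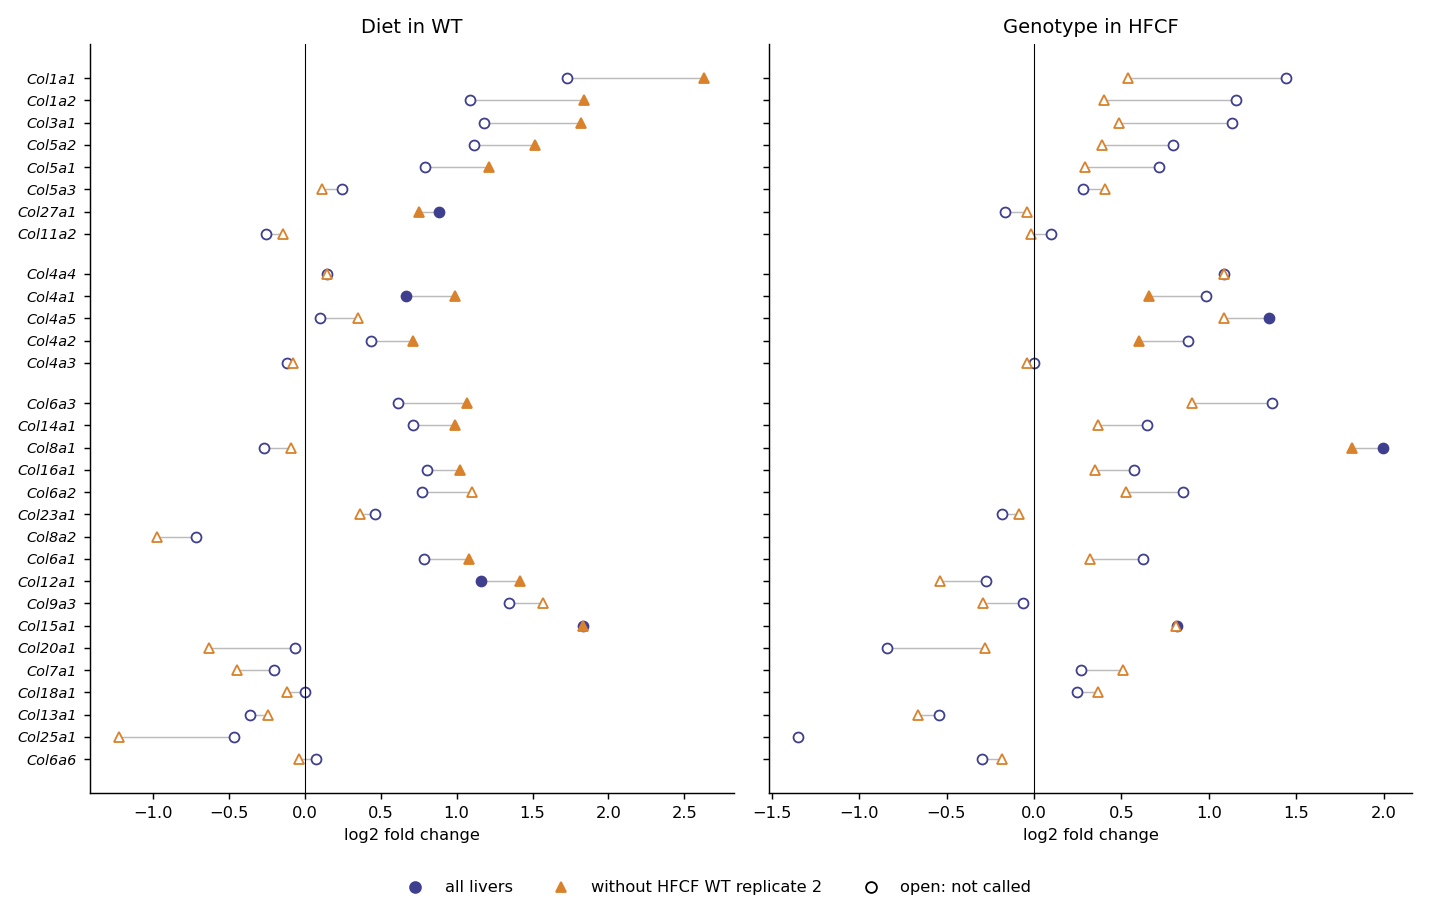
Log2 fold changes of the collagens for the diet in WT livers and for the genotype labels in HFCF livers, with all livers (circles) and without HFCF WT replicate 2 (triangles), filled where called. Col1a1 moves up in the diet comparison (1.73 to 2.63) and down in the genotype comparison (1.44 to 0.54) when this liver is left out, while Col27a1 (0.88 to 0.75 and -0.17 to -0.04) and Col5a3 (0.25 to 0.12 and 0.28 to 0.41) move the other way.

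The HFCF diet in WT livers was compared with chow in the same label, in a fit of all 12 livers. This comparison shares the HFCF WT livers with the one between genotype labels above, so a low HFCF WT liver lowers the one and raises the other. Of the 30 collagens tested, 4 rose, Col15a1, Col27a1, Col12a1 and Col4a1, and none fell. Over the 14535 genes tested, 6.14% were called higher and 3.24% lower. The median of the collagens was 0.54 beside 0.00951 for all genes, with 22 of 30 estimates above 0 (73.3%). Groups stood apart, HFCF higher, for 3 of 30 members, where 17.8% of all genes did.

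Col15a1 rose from 0.559, 2.21 and 1.41 CPM on chow to 3.51, 4.33 and 5.37 CPM on HFCF, and the groups did not overlap (1.83 ± 0.37, adjusted p = 0.00534, limma). Col27a1, a fibrillar chain best known from cartilage, had 19.6, 25.3 and 20.9 CPM on chow and 40.5, 47.9 and 33.4 CPM on HFCF. Its groups were apart too (0.88 ± 0.19, adjusted p = 0.00704, limma), and WT replicate 2 was its highest HFCF liver, as it was in Col5a3. Both genes were called in each of the 12 fits that left out 1 liver.

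The other 2 calls were less firm. Col12a1, a FACIT of tissues under load, had 0.823, 1.77 and 0.981 CPM on chow and 2.90, 1.77 and 3.18 CPM on HFCF (1.16 ± 0.37, adjusted p = 0.0406, limma). Col4a1 had 11.6, 15.6 and 12.8 CPM on chow and 23.01, 13.5 and 29.99 CPM on HFCF (0.67 ± 0.22, adjusted p = 0.048, limma). In both genes HFCF WT replicate 2 lay inside the chow range. Col12a1 was called in 5 and Col4a1 in 2 of the 12 fits without 1 liver.

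The bulk fibrillar chains were not called in WT. Col1a1 had 2.93, 9.06 and 5.10 CPM on chow and 30.5, 4.88 and 33.4 CPM on HFCF (1.73 ± 0.69, adjusted p = 0.0881, limma). Col1a2, its partner chain in type I, had 7.47, 12.004 and 9.77 CPM against 30.7, 7.20 and 38.2 CPM (1.09 ± 0.539, adjusted p = 0.162, limma). Col3a1 had 14.02, 26.02 and 18.2 CPM against 63.8, 17.4 and 69.2 CPM (1.18 ± 0.49, adjusted p = 0.0983, limma). In all 3 genes HFCF replicates 1 and 3 lay above every chow liver, and replicate 2 was inside or below the chow range. The remaining members among the 3 with the highest mean counts of each class were Col14a1 (0.71 ± 0.255, adjusted p = 0.0617), Col4a2 (0.43 ± 0.23, adjusted p = 0.192), Col6a3 (0.62 ± 0.356, adjusted p = 0.229), Col5a3 (0.25 ± 0.173, adjusted p = 0.324) and Col4a5 (0.10 ± 0.319, adjusted p = 0.849) in limma, and all of these groups overlapped. Of the members with lower counts, Col5a2 had overlapping groups and an adjusted p of 0.0503, and Col16a1 (0.80 ± 0.29, adjusted p = 0.0636, limma) had groups that were apart.

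Without HFCF WT replicate 2 the share of all genes called higher for the diet in WT was 8.4%, against 6.14% with all livers. The count of called members in WT then went from 4 to 14, all of them higher on HFCF and the 4 of the full set among them. Those added were Col1a1 (2.63, adjusted p = 0.0051), Col1a2 (1.84, adjusted p = 0.0055), Col3a1 (1.82, adjusted p = 0.00501), Col5a1, Col5a2, Col4a2, Col6a1, Col6a3, Col14a1 and Col16a1, all by limma. Without chow HuRHep-/- replicate 3, a liver that enters this comparison only through the shared estimate of spread, 7 were called, and without both livers 15. Without HFCF WT replicate 1 or 3, HFCF HuRHep-/- replicate 1 or 2, or chow WT replicate 1 or 3, the count was 2, which were Col15a1 and Col27a1 each time.

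The HFCF diet in livers labelled HuRHep-/- gave the most calls. Of the 30 collagens tested, 17 rose and 2 fell, beside 14.2% of all 14535 genes called higher and 4.9% called lower. The median was 1.22 on the log2 scale beside 0.00226 for all genes, and 26 of 30 estimates (86.7%) were above 0. For 20 of 30 members (66.7%) the HFCF livers were all above the chow livers, where 27.5% of all genes were, and for 3 members they were all below. The class medians were 1.79 for the fibrillar, 1.13 for the type IV and 1.20 for the other collagens.

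**Figure D3:**
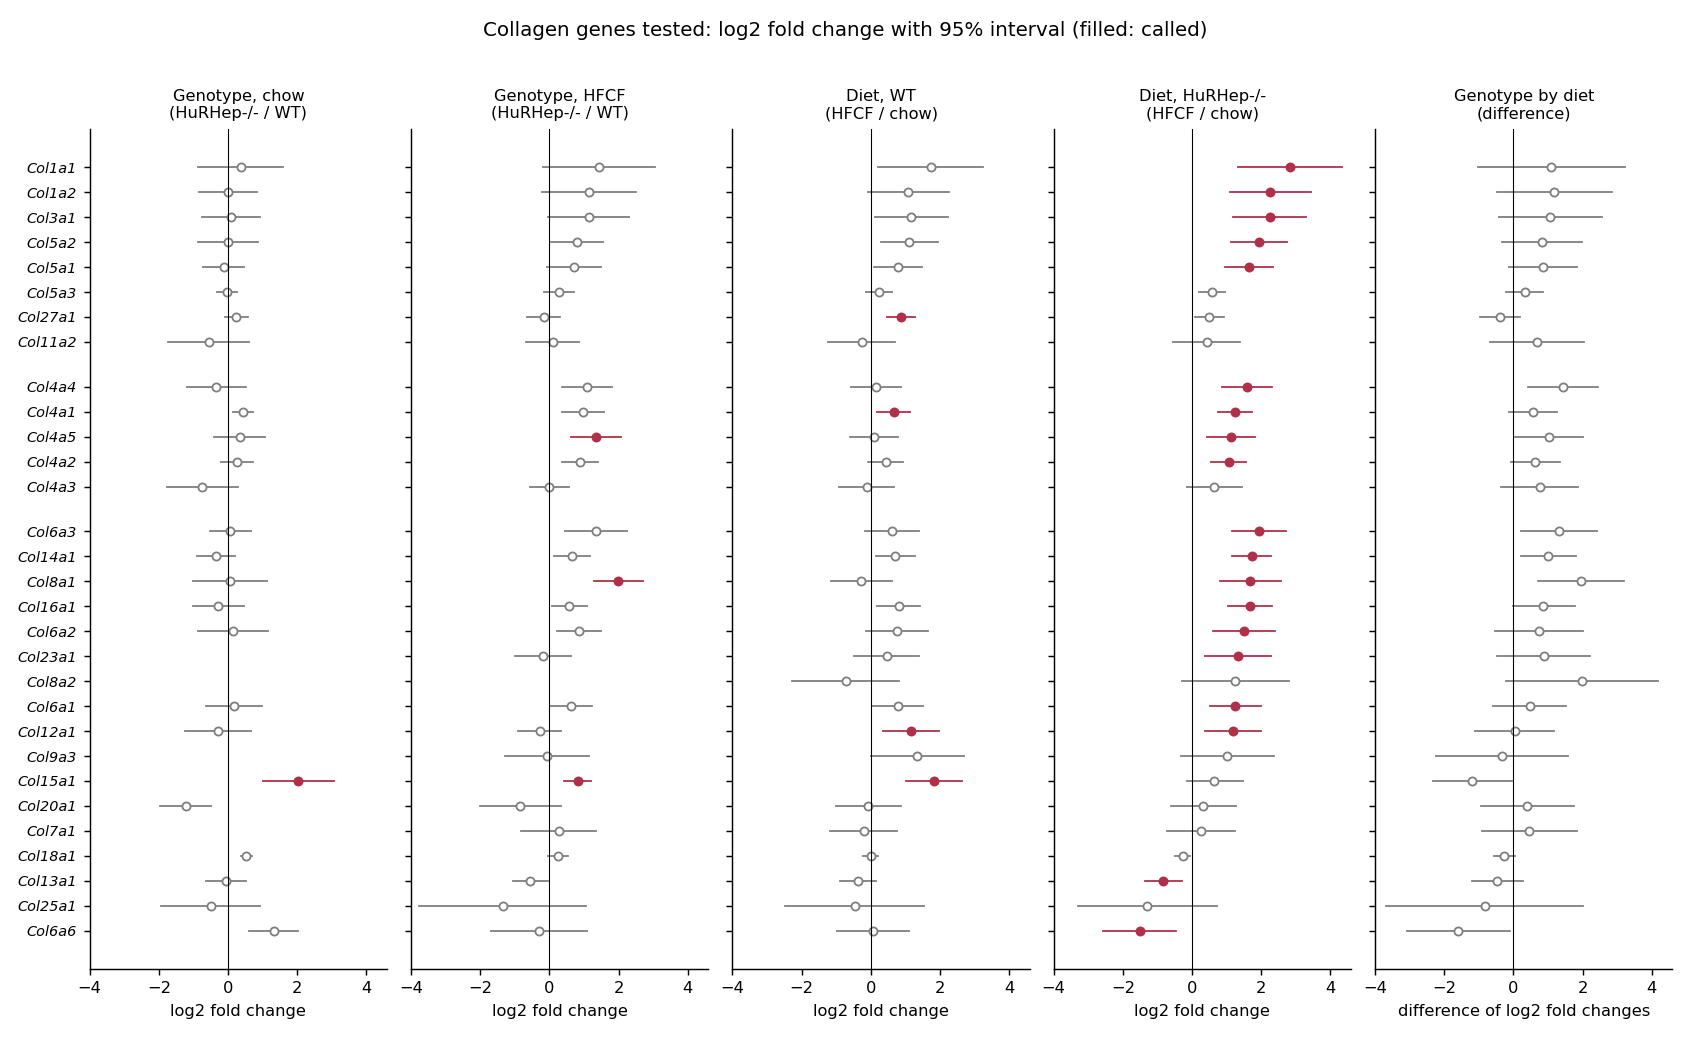
Log2 fold changes with 95% intervals of the 30 tested collagens in the 5 comparisons, ordered as fibrillar, type IV and other, with filled red points where called. The column for the diet in livers labelled HuRHep-/- holds 19 filled points and the column for the genotype-by-diet term holds 0.

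All 8 fibrillar collagens tested had estimates above 0 here, and 5 were called. Col1a1 went from 10.5, 8.91 and 3.08 CPM on chow to 48.4, 35.9 and 59.0 CPM on HFCF (2.82 ± 0.69, adjusted p = 0.00808, limma), a fold of 7.08 (95% interval 2.49 to 20.1). Col1a2 went from 13.2, 12.8 and 5.08 CPM to 44.8, 37.3 and 57.4 CPM (2.27 ± 0.54, adjusted p = 0.00707, limma), and Col3a1 from 27.9, 25.3 and 10.98 CPM to 88.9, 82.5 and 114 CPM (2.25 ± 0.49, adjusted p = 0.0044, limma). Every HFCF liver was above every chow liver in these genes, and chow replicate 3 was the lowest each time.

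Type V, which seeds type I fibrils, was called in 2 of its 3 chains. Col5a1 had 4.84, 4.05 and 2.40 CPM on chow and 11.1, 11.2 and 11.8 CPM on HFCF (1.65 ± 0.32, adjusted p = 0.00259, limma). Col5a2 had 1.48, 2.10 and 0.862 CPM against 5.26, 5.44 and 5.44 CPM (1.94 ± 0.38, adjusted p = 0.00251, limma). The HFCF livers of each chain were close to one another and far above chow. Col5a3, the third chain, had the highest level per kilobase of the type V chains on chow, and had 29.7, 30.2 and 23.3 CPM against 41.5, 46.7 and 35.4 CPM (0.57 ± 0.17, adjusted p = 0.0224, limma). It passed the test below 1.5-fold. Col27a1 had 21.9, 30.3 and 25.1 CPM against 31.0, 31.5 and 48.4 CPM (0.50 ± 0.189, adjusted p = 0.0538, limma) and was not called.

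Of the 5 type IV chains tested, 4 rose. Col4a1 had 18.6, 18.9 and 16.1 CPM on chow and 43.3, 40.2 and 42.6 CPM on HFCF (1.24 ± 0.22, adjusted p = 0.00171, limma). Col4a2, transcribed away from Col4a1 out of the shared start, had 13.6, 14.6 and 13.3 CPM against 30.9, 29.1 and 26.96 CPM (1.06 ± 0.23, adjusted p = 0.00445, limma). In both genes the livers of a group were close together and the groups far apart. Col4a4 (1.59 ± 0.33, adjusted p = 0.00356) and Col4a5 (1.13 ± 0.32, adjusted p = 0.0163, both limma) rose from levels of 0.246 to 0.495 and of 0.677 to 1.05 CPM. Col4a3 had 0.435, 0.743 and 0.215 CPM against 0.598, 0.700 and 0.673 CPM, overlapping groups (0.64 ± 0.364, adjusted p = 0.182, limma).

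Type VI rose in its 3 common chains. Col6a3, the largest chain, had 6.99, 5.60 and 3.57 CPM on chow and 18.4, 16.1 and 26.4 CPM on HFCF (1.93 ± 0.36, adjusted p = 0.00191, limma). Col6a1 rose by 1.26 ± 0.34 (adjusted p = 0.0135, limma) and Col6a2 by 1.504 ± 0.41 (adjusted p = 0.0142, limma). Col6a6 moved the other way, from 0.696, 0.836 and 0.738 CPM to 0.0997, 0.337 and 0.485 CPM, with no overlap (-1.51 ± 0.48, adjusted p = 0.0269, limma). It rests on 24, 27 and 24 counts against 4, 13 and 18.

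Of the FACITs, 3 of the 5 tested rose. Col14a1, a FACIT that lies on the surface of interstitial fibrils, had 20.0, 25.9 and 13.1 CPM on chow and 62.0, 64.7 and 62.1 CPM on HFCF. It had the smallest p of the collagens in this comparison (1.73 ± 0.26, adjusted p = 0.000617, limma), and its HFCF livers differed by less than 3 CPM. Col16a1 had 2.06, 1.64 and 0.862 CPM against 5.19, 3.97 and 4.74 CPM (1.68 ± 0.29, adjusted p = 0.00138, limma), and Col12a1 rose by 1.20 ± 0.37 (adjusted p = 0.0244, limma). Col20a1 and Col9a3 had overlapping groups.

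Col8a1 rose from 0.377, 0.557 and 0.431 CPM to 1.87, 1.58 and 1.10 CPM (1.69 ± 0.40, adjusted p = 0.00708, limma). Among the transmembrane collagens Col23a1 rose from 0.116, 0.155 and 0.154 CPM, which are 4, 5 and 5 counts, to 0.349, 0.415 and 0.377 CPM (1.34 ± 0.44, adjusted p = 0.0303, limma), and its fold depends on those few chow counts. Col13a1, which sits in the membrane at cell contacts, had 1.57, 1.86 and 2.86 CPM on chow and 1.12, 1.17 and 1.13 CPM on HFCF, and fell by 0.82 on the log2 scale (SE 0.24, adjusted p = 0.0186, limma). Its HFCF livers were nearly equal and below all chow livers. The remaining tested members stayed low in every group and were called in no comparison. Levels over the 12 livers ran from 0.277 to 1.27 CPM for Col11a2, from 0.132 to 0.435 CPM for Col7a1 (anchoring fibrils), from 0.0308 to 0.485 CPM for Col8a2, from 0.0329 to 0.431 CPM for Col9a3 and from 0.0249 to 1.04 CPM for Col25a1.

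Neither multiplexin was called for the diet under the HuRHep-/- label. Col15a1 had 5.45, 5.17 and 4.25 CPM on chow and 8.38, 7.70 and 7.19 CPM on HFCF in livers labelled HuRHep-/-, groups that were apart without a call (0.65 ± 0.37, adjusted p = 0.185, limma). Col18a1 had 878, 919 and 827 CPM against 669, 753 and 767 CPM, with every HFCF liver below every chow liver (-0.26 ± 0.10, adjusted p = 0.056, limma). In WT livers Col18a1 had 614, 621 and 584 CPM on chow and 563, 715 and 555 CPM on HFCF, an estimate of 0.00 (95% interval -0.218 to 0.219), with HFCF replicate 2 the highest liver and the other 2 below chow.

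Of the 19 calls in livers labelled HuRHep-/-, 14 held without chow HuRHep-/- replicate 3. The 5 lost were Col12a1, Col13a1, Col23a1, Col4a5 and Col6a6, so that neither fall was called. The median over the collagens was then 0.935. Without HFCF HuRHep-/- replicate 1 the same 5 were lost and Col27a1 was added. Between 14 and 20 members were called over the 12 fits that left out 1 liver, and Col1a1, Col1a2, Col3a1, Col5a1, Col5a2, Col4a1, Col4a2, Col4a4, Col6a1, Col6a2, Col6a3, Col8a1, Col14a1 and Col16a1 were called in all 12.

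Whether the effect of the diet differed between the genotype labels was tested by the interaction term. limma called 0 of the 30 collagens (0.0% of all genes were called), with 7 of 30 (23.3%) at an unadjusted p under 0.05, where 14.4% of all genes were. With voom weights the count was also 0. The median was 0.71 beside 0.00483 for all genes, and 23 of 30 estimates were above 0, meaning a higher diet estimate under the HuRHep-/- label. The lowest p-values were those of Col8a1 (1.96 ± 0.568, adjusted p = 0.198), Col4a4 (1.44 ± 0.466, adjusted p = 0.223) and Col14a1 (1.02 ± 0.361, adjusted p = 0.256) in limma. Among the other members with the highest mean counts of their class the terms were Col3a1 (1.07 ± 0.687, adjusted p = 0.498), Col27a1 (-0.38 ± 0.267, adjusted p = 0.539), Col5a3 (0.33 ± 0.245, adjusted p = 0.57), Col4a1 (0.57 ± 0.315, adjusted p = 0.431), Col4a2 (0.63 ± 0.326, adjusted p = 0.401), Col4a5 (1.03 ± 0.451, adjusted p = 0.327), Col6a3 (1.32 ± 0.503, adjusted p = 0.277) and Col18a1 (-0.26 ± 0.141, adjusted p = 0.417) by limma. Col15a1 had the opposite sign to the first 3 (-1.18 ± 0.523, adjusted p = 0.331, limma). So a count of 4 in one label and 19 in the other does not show that the response to the diet differed between them. The Col1a1 term was 1.09 with all livers (adjusted p = 0.64, limma) and between 0.193 and 1.58 when 1 liver was left out, lowest without HFCF WT replicate 2. Without this liver and chow HuRHep-/- replicate 3 the median over the collagens was 0.16.

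The class sums place the livers side by side. Col2a1, Col11a1 and Col19a1 were listed for HFCF livers alone, so the fibrillar sum on chow holds 9 of its 11 genes. The 11 fibrillar genes together held 74.8, 108 and 91.4 CPM in chow WT, 110, 114 and 71.2 CPM in chow HuRHep-/-, 216, 123 and 214 CPM in HFCF WT and 272, 251 and 333 CPM in HFCF HuRHep-/- livers. The 6 type IV genes held 21.8, 33.5 and 26.2 CPM, then 33.9, 35.9 and 30.7 CPM, then 43.2, 25.8 and 51.9 CPM, and then 78.1, 72.6 and 74.6 CPM in the same order. In both sums the HFCF livers labelled HuRHep-/- were above all others, and HFCF WT replicate 2 fell near the chow livers. The sum over all collagens, led by Col18a1, was 749 to 822 CPM in chow WT, 962 to 1129 in chow HuRHep-/-, 908 to 925 in HFCF WT and 1145 to 1315 in HFCF HuRHep-/- livers. In this sum HFCF WT replicate 2, at 920 CPM, lay between the other 2 WT livers.

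**Figure D4:**
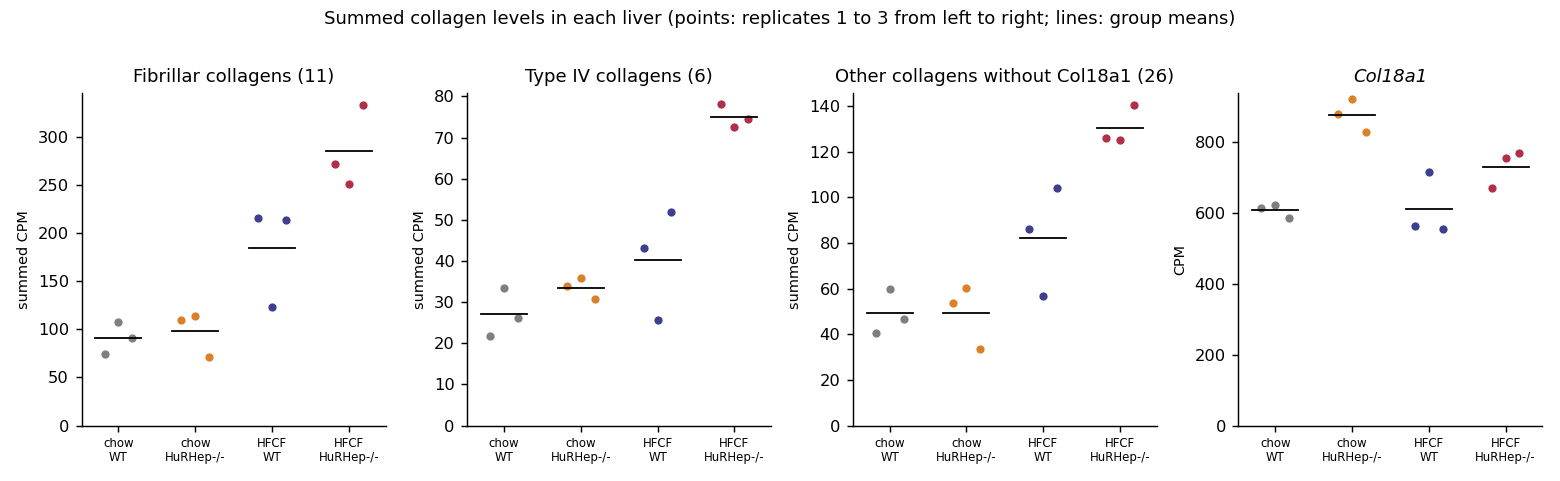
Summed CPM of the 11 fibrillar, 6 type IV and 26 other collagens without Col18a1, and the CPM of Col18a1, in each liver, with a line at each group mean. Col2a1, Col11a1 and Col19a1 were listed for HFCF livers alone and enter those sums only. HFCF livers labelled HuRHep-/- are highest in the first 3 sums (72.6 to 78.1 CPM for type IV), while Col18a1 is highest in chow livers of that label (827 to 919 CPM).

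The balance between the chains of 1 molecule was read from ratios. Reads of Col1a1 per read of Col1a2 were 0.392 to 0.755 in chow WT, 0.606 to 0.793 in chow HuRHep-/-, 0.678 to 0.993 in HFCF WT and 0.964 to 1.08 in HFCF HuRHep-/- livers. In HFCF WT the lowest ratio was that of replicate 2. For type IV the ratio of Col4a1 to Col4a2 ran from 0.992 to 1.58 over the 12 livers. These ratios are given without a test.

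The machinery that makes, anchors and removes collagen was read from 7 lists of genes. On chow none of these lists held a call between the genotype labels by limma or with voom weights, with 0 to 4 genes of a list at an unadjusted p under 0.05. In HFCF livers, where 2.15% of all genes were called higher, limma called, higher under the HuRHep-/- label, 2 of 11 genes of procollagen cleavage and cross-linking (Loxl1 at 1.16 and Tgm2 at 0.72), 2 of 16 fibril-associated proteins (Eln, elastin, at 1.82 and Bgn, biglycan, at 0.66) and 3 of 15 other basement membrane proteins (the laminin chains Lamc3 at 1.35 and Lama2 at 1.07 among them). Of 7 collagen receptors Ddr1, a kinase that binds fibrillar and type IV collagen, was higher (1.40), and of 20 TGF-beta and profibrotic genes 3 were, with Ltbp2 at 1.70 and Tgfb3 at 1.15. In the list of hydroxylation and folding limma called 0 of 19 there (11 at an unadjusted p under 0.05, 1 called with voom weights), and in that of breakdown 0 of 12 (4 and 1).

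With HFCF WT replicate 2 left out, where 1.4% of all genes were called higher, the counts were 3 in cleavage and cross-linking (Adamts2 added), 2 in the fibril-associated list (Eln and Fbn1), 0 in the other basement membrane proteins (10 at an unadjusted p under 0.05), 1 in the receptors (Ddr1), 2 in the TGF-beta list (Ltbp2 and Pdgfrb) and 0 in hydroxylation and in breakdown (9 and 3 at an unadjusted p under 0.05).

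The counts for the diet under the HuRHep-/- label stand beside the 17 collagens that rose and 14.2% of all genes called higher. In the list of hydroxylation, glycosylation and folding 8 of 19 rose, with Serpinh1, the collagen chaperone HSP47, at 2.12 and Plod2, a lysyl hydroxylase, at 1.99, and Mia3, an export factor for procollagen, fell by 0.65 on the log2 scale. In cleavage and cross-linking 8 of 11 rose (Lox at 2.65, Adamts2, the procollagen peptidase, at 1.91), and in breakdown and its inhibitors 7 of 12 (the macrophage elastase Mmp12 at 5.28 and the inhibitor Timp1 at 3.91). The fibril-associated list rose in 15 of 16 genes (Tnc at 2.75), the receptors in 3 of 7 (Ddr1 at 1.93), the other basement membrane proteins in 9 of 15 with 1 lower (Lama3, -1.45), and the TGF-beta list in 13 of 20 (Pdgfb at 1.96). In WT livers, where 6.14% of all genes were called higher, limma called 0, 2, 2, 3, 0, 1 and 1 genes higher in the same order, with Mmp12 at 4.15 and Loxl2 at 0.99. The lists at 0, hydroxylation and the receptors, had 8 and 3 genes at an unadjusted p under 0.05 and no call with voom weights. The WT counts without HFCF WT replicate 2, where 8.4% of all genes were called higher, were 2, 6, 3, 9, 2, 4 and 5. The interaction term called no gene of these 7 lists by limma or with voom weights, with 2 to 8 genes of a list at an unadjusted p under 0.05, so a difference between the labels in the response of these genes was not shown.

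Markers of the liver's cell types were read in the same way. Their counts stand beside 14.2% of all genes called higher for the diet under the HuRHep-/- label, 6.14% for the diet in WT livers and 2.15% between the labels in HFCF. By limma, under the HuRHep-/- label, the diet raised 10 of 10 stellate cell markers, 7 of 7 of activated myofibroblasts, 7 of 7 of portal fibroblasts, 5 of 6 of cholangiocytes, 8 of 8 of recruited macrophages, 3 of 6 of mesothelium, 2 of 6 of smooth muscle, 3 of 8 of Kupffer cells with 1 lower, and 0 of 9 of sinusoidal endothelium (2 at an unadjusted p under 0.05, none called with voom weights), while 3 of 10 hepatocyte markers fell. In WT livers it raised 4 of 10 stellate, 1 of 7 myofibroblast, 6 of 8 macrophage and 2 of 8 Kupffer markers (4, 1, 3 and 1 with voom weights), 3 hepatocyte markers fell, and the other 5 lists held no call by limma or with voom weights, with 1 portal fibroblast marker and none of the others at an unadjusted p under 0.05. Between the genotype labels in HFCF livers the higher calls were 3 of 7 portal fibroblast, 2 of 7 myofibroblast, 2 of 6 cholangiocyte, 2 of 4 smooth muscle and 1 of 8 macrophage markers, with 0 of 10 stellate, 0 of 6 mesothelium, 0 of 9 endothelial and 0 of 8 Kupffer markers and 1 hepatocyte marker lower. The lists at 0 had 3, 2, 1 and 3 markers at an unadjusted p under 0.05 and no call with voom weights. On chow no marker was called by either, and 0 to 4 of a list had an unadjusted p under 0.05. The interaction term called no marker by limma or with voom weights, with 0 to 4 of a list at an unadjusted p under 0.05, so these counts do not show that the marker response to the diet differed between the labels.

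The diet in WT livers, without HFCF WT replicate 2, raised 6 of 10 stellate, 4 of 7 myofibroblast, 7 of 8 macrophage, 3 of 8 Kupffer and 1 of 7 portal fibroblast markers, and 4 hepatocyte markers fell. Between the genotype labels in HFCF the higher calls were then 1 of 10 stellate (Pdgfrb), 1 of 7 myofibroblast, 2 of 7 portal fibroblast, 1 of 6 cholangiocyte, 1 of 4 smooth muscle and 1 of 8 macrophage markers, and no hepatocyte marker was called (4 at an unadjusted p under 0.05). Under the HuRHep-/- label, where this liver enters only through the shared estimate of spread, the diet counts moved by at most 1 in any list.

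The summed stellate markers held 163 to 176 CPM in chow WT, 129 to 175 in chow HuRHep-/-, 209 to 296 in HFCF WT and 271.6 to 279.5 in HFCF HuRHep-/- livers, and those of myofibroblasts 17.8 to 22.5, 20.7 to 24.6, 16.7 to 31.1 and 48.2 to 61.4 CPM. HFCF WT replicate 2 was the lowest of its group in both sums, at 209 and 16.7 CPM, as it was in the type I and III collagens. It was also lowest in the sums of recruited macrophages (95.8 CPM, against 134 and 224), Kupffer cells (217, against 248 and 341), cholangiocytes (54.9), portal fibroblasts (10.4) and smooth muscle (10.8), highest in that of hepatocytes (84080, against 76290 and 75980) and between the other 2 in those of mesothelium and sinusoidal endothelium. For portal fibroblasts the sums ran from 10.4 to 13.6, 8.0 to 13.9, 10.4 to 16.8 and 25.95 to 38.2 CPM, and for cholangiocytes from 48.0 to 93.0, 59.1 to 94.1, 54.9 to 103 and 149 to 260 CPM. The mesothelial sum, which marks the liver's capsule, was 0.369 CPM in chow HuRHep-/- replicate 3, where Upk1b and Muc16 had 0 counts, and 4.67 and 7.52 CPM in the other livers of that group. The part of these cell types in the collagen differences was not tested. Acta2 and Tagln stand in the lists of both myofibroblasts and smooth muscle, and they were the only smooth muscle markers called in any comparison. Of the markers, 8 also stand in the lists of collagen machinery (Eln, Fbln1, Fbln2, Lox, Loxl2, Mmp12, Pdgfrb and Timp1).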

How the data were processed

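RNA-seq of bulk liver gave 12 libraries, 1 per mouse, in 4 groups of 3. The authors aligned reads to GRCm38.p6 with CLC Genomics Workbench, counting the reverse strand, and deposited raw counts per gene in a chow and an HFCF table, as text with digit separators and with no normalization. The version of CLC Genomics Workbench is not given in the sources used here. All values were whole numbers. The tables were joined by gene identifier, and 3 collagens listed in the HFCF table alone entered the levels of those livers only.

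Libraries were scaled by a trimmed mean of M values (trims 0.3 and 0.05), and a gene was tested where 3 libraries or more reached the CPM of 10 counts in the median library and its total was 15 or more. Counts with a pseudocount of 0.5 were taken to log2 CPM and fitted with limma 3.58.1 (R 4.3.3) with an intensity trend, with Benjamini-Hochberg adjustment over all genes tested. Genotype labels were compared within each table on its 6 livers, and diets and the interaction in 1 fit of 12 livers. Positions are from GENCODE vM21 and start sequences from RefSeq. The scripts were tested on simulated data. The p-values set each difference against the spread between livers within groups. limma moderated that spread over all genes tested, and for the diets and the interaction it was shared by all 4 groups. Alternatives were voom weights, other scalings, filters, pseudocounts, a replicate block and leaving out livers, the pair left out together, and the gene lists without HFCF WT replicate 2, being chosen after seeing the data.

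By rule, statistics were given for each collagen called and, in each comparison, for the 3 tested members of each class with the highest mean count, and at most 2 higher and 2 lower called genes were named per list of collagen machinery. Other collagens were named after their values were seen. The members and lists were chosen with earlier results of these data known. Acetaminophen experiments of the paper are not analysed here.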

Additional observations from a re-analysis of the deposited data

How the results depend on the processing

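The number of collagens called between the genotype labels on chow was 1. It was 2 with no fold threshold, where Col18a1 was added, and 0 with upper-quartile scaling or a replicate block, and 0 to 1 with 1 liver left out (0 without any chow HuRHep-/- liver or chow WT replicate 3). In HFCF it was 3, against 5 in a fit of all 12 livers, 6 with a replicate block (Col4a1, Col4a2 and Col6a3 added) and 0 to 6 with 1 liver left out. For the diet in WT livers it was 4, against 2 with no filter on low counts, 2 to 14 with 1 liver left out and 15 without HFCF WT replicate 2 and chow HuRHep-/- replicate 3 together. For the diet under the HuRHep-/- label it was 19, and 14 to 20 with 1 liver left out, with no other alternative moving it by more than 1.5 times. The interaction count was 0 in each alternative run. The cause of these shifts was not tested.

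Replicate numbers in the labels were not stated to pair livers. Deviations of same-numbered livers correlated at -0.0276, 0.112 and -0.0158 on chow and at 0.1, 0.21 and 0.0898 in HFCF, so the replicate block was kept as an alternative. With it the diet counts were 3 in WT and 19 under the HuRHep-/- label.

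Estimates of some uncalled members changed sign near 0. With 1 liver left out, those on chow ran from -0.17 to 0.51 for Col3a1 (below 0 without HuRHep-/- replicate 1 or 2 or WT replicate 1), from -0.10 to 0.095 for Col5a3 (above 0 without HuRHep-/- or WT replicate 3) and from -0.10 to 0.58 for Col6a1 (below 0 without HuRHep-/- replicate 2 or WT replicate 1). For the diet in WT livers they ran from -0.12 to 0.065 for Col18a1 and from -0.15 to 0.35 for Col4a5 (below 0 without HFCF WT replicate 3 or chow WT replicate 1). Col18a1 was lowest without HFCF WT replicate 2, at -0.12 also with the pair of livers left out, and was -0.0063 with no filter. Over the members named, those called kept their call in 178 alternatives other than leaving out a liver and lost it in 10, and with a liver left out they kept it in 266 and lost it in 57.

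The precision is limited by 3 livers per group, and in Col6a6 and Col23a1 by groups with livers of 4 or 5 counts.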
